A study of Mus musculus with 2 samples.

Results

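Ubd and the genes of the immunoproteasome and of peptide transport were compared between adipose tissue of C57BL/6 mice on a high fat diet (HFD32) and on a normal diet (CE-2). The gene set was defined by name and held 10 genes: Ubd, Uba6, Nub1, Psmb8, Psmb9, Psmb10, Psme1, Psme2, Tap1 and Tap2. A gene was measured through the Affymetrix probe sets annotated to it alone, which gave 16 probe sets of 8 genes, among 18193 genes measured in the same way. Nub1 and Psme2 were not analysed here. C57BL/6 is an inbred mouse strain, and both groups were on their diets between the ages of 6 and 18 weeks. For either diet, RNA pooled from 3 animals was hybridised to 1 array. Neither the fat depot nor the sex is stated in the sources used here.

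FAT10, the product of Ubd, is a modifier made of a pair of ubiquitin-like domains, and its attachment sends a protein to the proteasome. Its expression is known to be induced by interferon gamma together with tumour necrosis factor, and mice that lack it have been described as lean. Interferon gamma also induces the immunoproteasome, in which Psmb8, Psmb9 and Psmb10 replace the catalytic subunits Psmb5, Psmb6 and Psmb7. The peptides it cuts are carried by the transporter of Tap1 and Tap2 into the endoplasmic reticulum, where they are loaded on MHC class I.

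Ubd, Psmb8, Psmb9, Tap1 and Tap2 all lie on chromosome 17. The 300 bases around the start of 3 of these genes (250 before it and 50 after it, from RefSeq, build GRCm38.p6) are shown because Ubd carried the main difference between the diets, while Psmb8 and Tap1, genes of the same chromosome that interferon gamma also induces, differed little. They are chr17:37193642-37193941 for Ubd, chr17:34197945-34198244 for Psmb8 and chr17:34187306-34187605 for Tap1, each on the + strand. Capitals mark matches to 3 motifs searched on both strands: the interferon gamma activated site (TTCNNNGAA), the interferon-stimulated response element (GAAANNGAAA) and the NF-kappaB consensus.
Ubd: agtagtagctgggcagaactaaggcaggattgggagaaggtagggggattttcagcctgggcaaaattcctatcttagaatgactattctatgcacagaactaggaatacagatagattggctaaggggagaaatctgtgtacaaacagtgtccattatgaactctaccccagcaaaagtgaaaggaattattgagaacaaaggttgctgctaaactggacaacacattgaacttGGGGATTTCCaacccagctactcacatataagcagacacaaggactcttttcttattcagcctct
Psmb8: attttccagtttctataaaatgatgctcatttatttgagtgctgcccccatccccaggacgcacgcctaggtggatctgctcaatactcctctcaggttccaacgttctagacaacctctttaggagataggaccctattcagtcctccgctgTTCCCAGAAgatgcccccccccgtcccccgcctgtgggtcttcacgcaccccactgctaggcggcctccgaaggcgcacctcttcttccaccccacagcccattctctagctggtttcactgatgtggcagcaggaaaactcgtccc
Tap1: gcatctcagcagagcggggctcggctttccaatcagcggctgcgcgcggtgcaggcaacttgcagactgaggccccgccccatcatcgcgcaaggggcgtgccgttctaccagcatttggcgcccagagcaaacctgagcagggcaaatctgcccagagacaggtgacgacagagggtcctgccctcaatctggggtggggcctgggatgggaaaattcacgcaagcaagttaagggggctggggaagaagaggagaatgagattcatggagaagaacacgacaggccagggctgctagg

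The Ubd window held 1 match, GGGGATTTCC, to the NF-kappaB consensus, which began 15 bases before the gene start. The Psmb8 window held 1 match, TTCCCAGAA, to the interferon gamma activated site, 97 bases before the start. The windows of Tap1, Psmb9 and Psmb10 held none of the 3 motifs, and that of Psme1 held 1 interferon-stimulated response element on the far side of the start. Each of these windows thus held at most 1 match, with no overlap between motifs. Of 32851 windows of this length in the table, 8.30% held the interferon gamma motif, 3.44% the response element and 8.46% the NF-kappaB consensus, and a match describes the letters only. RefSeq windows were found for 6 of the 8 measured genes. The Tap1 window and that of Psmb9, which is read from the opposite strand, shared 275 of their 300 bases.

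All values below are log2 signals as deposited unless said otherwise, and every difference is the high fat diet array minus the normal diet array, so that a difference of 1 is a 2-fold ratio. With 1 array per diet there was no replicate check and no test, and the number of arrays limits the precision. The only error available is that between probe sets of 1 gene, an SD of 0.27 on the log2 scale over 5131 genes. For the 3105 genes with exactly 2 probe sets above the floor, the 95th percentile of the gap between their differences was 0.70. A gene is represented by its brightest probe set and was compared if the mean of both arrays was at or above the floor of 5.44, the median of all probe sets. This held for all 8 measured members and for 11778 genes in all.

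Ubd had a log2 signal of 12.56 on the high fat diet array, against 6.14 on the normal diet array. The difference was 6.42, a ratio of 85.7, in the contrast for which the gene was chosen. Linear signals were 6029 on the high fat diet array and 70.4 on the normal diet array. The normal diet value was 1.20 above the background level (4.94, the 95th percentile of 81 probe sets for sensory receptors), so both ends of the ratio were measured. Ubd was read by a single probe set, so no other probe set could be compared with it.

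Among the 11778 genes, Ubd ranked 2 by difference. The 3 genes nearest to it by this measure, over 2 arrays only, were Tph2, a tryptophan hydroxylase (7.02), Lcn8, an epididymal lipocalin (5.11), and Lipf, a gastric lipase (4.83). All 3 were below background on the normal diet array, so that their ratios were only bounded, at least 43.6-fold, 21.6-fold and 10.1-fold higher on the high fat diet array. Among the 11662 genes above background on both arrays Ubd ranked 1, and the next, Atp6v0d2, which encodes part of the lysosomal proton pump, was 19.3-fold higher. Of 1828 genes with a mean signal within 0.5 of that of Ubd, 51 were at least 2-fold higher, against 3.28% of all genes above the floor. The highest of them after Ubd was the acute-phase gene Saa3 with a difference of 3.85.

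**Figure D1:**
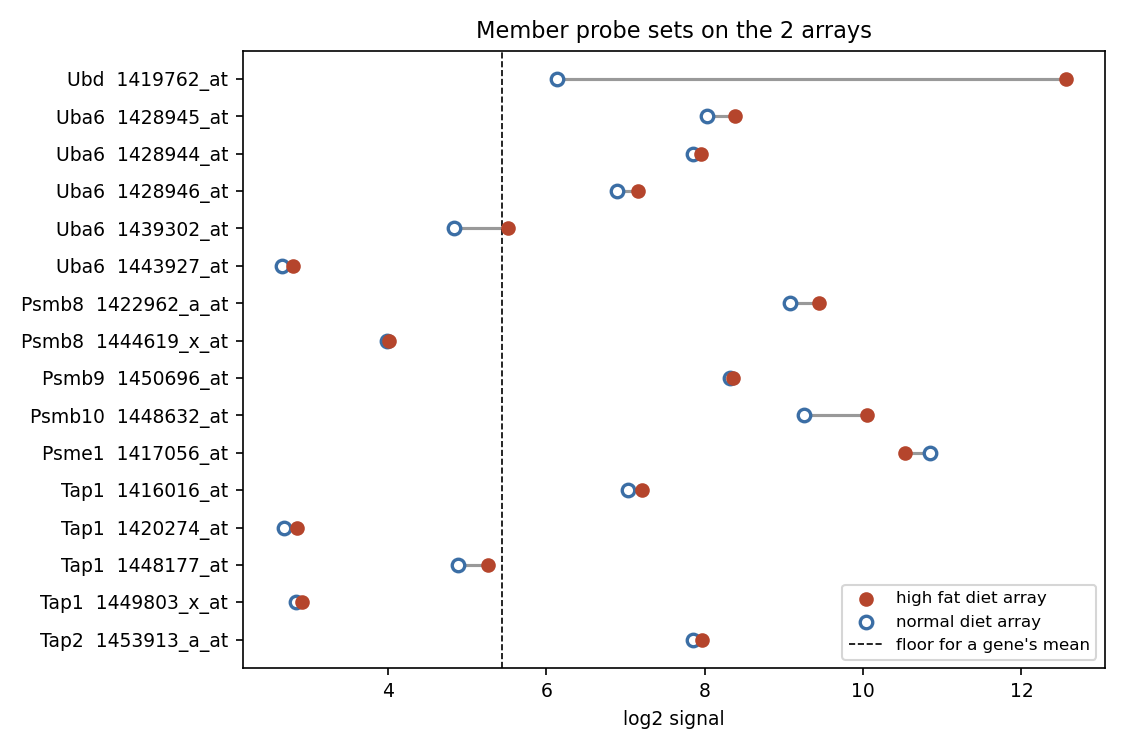
Log2 signal (horizontal axis) of all 16 probe sets of the 8 measured genes, with filled red points for the high fat diet array, open blue points for the normal diet array and a dashed line at the floor of 5.44. Ubd has 12.56 on the high fat diet array and 6.14 on the normal diet array, whereas the points of most other probe sets nearly touch and those of Psme1 are in the opposite order.

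Uba6 encodes the activating enzyme that charges FAT10, and also ubiquitin, at the start of conjugation. Its brightest probe set had 8.38 on the high fat diet array and 8.02 on the normal diet array, a difference of 0.35 or 1.28-fold. The other 2 above the floor differed by 0.27 and 0.10. These 3 probe sets were all slightly higher on the high fat diet array. Their differences spanned more than the median gap of genes with exactly 2 probe sets (0.18) and less than its 95th percentile. Of the 2 under the floor, one had 5.51 on the high fat diet array and was below background, at 4.83, on the normal diet array. The other was below background on both, with 2.80 on the high fat diet array and 2.66 on the normal diet array, so neither gives a measured difference.

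The differences of the immunoproteasome subunits ran from 0.05 to 0.79. Psmb10, which carries the trypsin-like activity, had 10.05 on the high fat diet array and 9.26 on the normal diet array, a difference of 0.79 or 1.73-fold. Psmb8, which carries the chymotrypsin-like activity, had 9.44 on the high fat diet array and 9.08 on the normal diet array, a difference of 0.37 or 1.29-fold. Psmb9, the remaining catalytic subunit, had 8.36 on the high fat diet array and 8.31 on the normal diet array, a difference of 0.05. The differences of Psmb10 and Psmb8 exceeded the SD between probe sets and that of Psmb9 did not, and this SD holds no spread between arrays or mice. The gap between Psmb8 and Psmb9 was below 0.70, the 95th percentile for 2 probe sets of 1 gene, so it does not separate them. Psmb10 and Psmb9 were read by 1 probe set each. A further probe set of Psmb8 was below background on both arrays, with 4.01 on the high fat diet array and 3.99 on the normal diet array.

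Psme1 encodes the alpha subunit of PA28, a cap that binds the proteasome core and opens it. Of the measured members it was the only one that was lower in the high fat diet pool, with 10.53 on the high fat diet array and 10.85 on the normal diet array. The difference was -0.32, which is 1.25-fold lower.

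Tap1 and Tap2 form the peptide transporter as a heterodimer. Tap1 had 7.21 on the high fat diet array and 7.03 on the normal diet array, a difference of 0.18. Tap2 had 7.96 on the high fat diet array and 7.85 on the normal diet array, a difference of 0.11. Both differences were smaller than the SD between probe sets. Of the other Tap1 probe sets, all under the floor, the brightest had 5.26 on the high fat diet array and was below background, at 4.88, on the normal diet array. The rest were below background on both, so none gives a measured difference.

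Over the 8 measured members, 1 (Ubd) was at least 2-fold higher on the high fat diet array, against 3.28% of all genes above the floor, and 0 were at least 2-fold lower, against 3.29%. At 1.5-fold 2 members were higher (Ubd and Psmb10), against 8.20% of all genes, and 0 were lower, against 8.52%. A positive difference of any size was found in 7 of 8 members, against 49.9% of all genes. Nothing is read from these shares, since the members were chosen with this contrast known. The median difference was 0.27 over the 8 members and 0.18 over the 7 other than Ubd, whose differences ran from -0.32 to 0.79. All genes above the floor had a median of 0 with quartiles at -0.23 and 0.23.

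Ordered by difference, Psmb10 ranked 589 among the 11778 genes, and Psmb8 lay above 84.5% of them, Uba6 above 83.8%, Tap1 above 69.9%, Tap2 above 63.3%, Psmb9 above 55.4% and Psme1 above 18.6%. From Psmb8 to Psmb9 each neighbouring pair in this order was separated by less than the SD between probe sets.

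**Figure D2:**
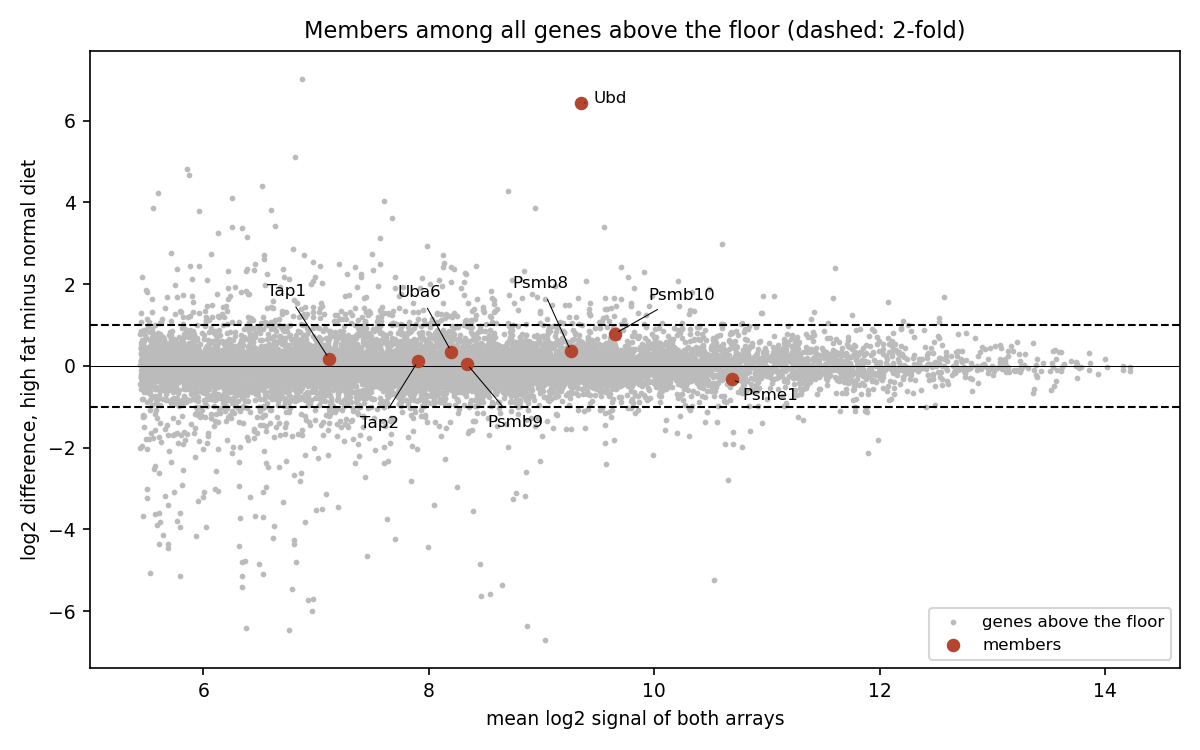
Log2 difference (vertical axis, high fat minus normal diet) against the mean log2 signal of both arrays for the 11778 genes above the floor (grey) and the 8 members (red), with dashed lines at 2-fold. Ubd lies at 6.42, while the other 7 members lie between -0.32 and 0.79, inside the dashed lines.

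The remaining proteasome genes differed little between the diets. Psmb5, the constitutive counterpart of Psmb8, had 10.67 on the high fat diet array and 10.40 on the normal diet array, a difference of 0.27 beside 0.37 for Psmb8. Psmb7 differed by 0.08, beside 0.79 for Psmb10, which takes its place. Psmb6 differed by -0.14, beside 0.05 for Psmb9. The difference between an immunoproteasome subunit and its counterpart was thus widest for Psmb10. The 11 other genes of the 20S core had a median difference of 0.10, with Psma1 (0.19) and Psma4 (0.17) highest and Psmb4 (-0.09) lowest. The 17 measured genes of the 19S regulator, which recognises and unfolds ubiquitylated proteins, had a median of 0.04, with Psmd8 (0.27) and Psmd13 (0.23) highest and Psmc1 (-0.29) lowest. Of these 31 genes 0 reached 1.5-fold in either direction, against 8.20% of all genes above the floor higher and 8.52% lower.

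Among 8 other activators and assembly factors the median was 0.18, and 1 reached 1.5-fold. That gene was Psme4, the activator PA200, with 10.62 on the high fat diet array and 10.02 on the normal diet array, 1.52-fold higher. Psme3, the gamma relative of PA28, differed by 0.39, and the assembly chaperone Psmg1 by -0.11. Psme1 and its relative Psme3 had differences of opposite sign.

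The 11 measured MHC class I and loading genes had a median of 0.14, with 0 at 1.5-fold or more. H2-K1, a classical class I heavy chain, had 13.42 on the high fat diet array and 12.92 on the normal diet array, a difference of 0.50. H2-D1, another such chain, differed by 0.18. The probe sets of H2-K1 and H2-D1 are of the kind that may bind several transcripts. B2m, the light chain of class I, had 13.89 on the high fat diet array and 13.83 on the normal diet array, a difference of 0.06. These values are close to the highest of the arrays, which were 14.21 on the high fat diet array and 14.28 on the normal diet array. Tapbp, which tethers the transporter to class I, differed by 0.29, the chaperones Calr and Canx by 0.34 and -0.14, and Nlrc5, the transactivator of class I genes, by -0.03.

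Other genes of FAT10 conjugation and binding had a median of 0.09 over 6 genes. Ube2z, the conjugating enzyme that takes FAT10 from Uba6, had 8.96 on the high fat diet array and 9.05 on the normal diet array, a difference of -0.08. Mad2l1, a spindle checkpoint protein that FAT10 binds, had 8.09 on the high fat diet array and a difference of 1.09, or 2.13-fold. It was the 1 gene of this list past 2-fold, and it is also a gene of dividing cells. The autophagy receptor Sqstm1 differed by 0.26 and the deacetylase Hdac6, which binds FAT10, by -0.51.

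The 7 other ubiquitin-like modifiers measured had a median of 0.33, led by Atg12 (0.67) and Nedd8 (0.56), with Fau lowest (-0.09), and 1 of them, Atg12, reached 1.5-fold. The 6 other activating enzymes had a median of 0.07, from Sae1 (0.15) and Atg7 (0.14) to Nae1 (-0.21), and 0 reached 1.5-fold.

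**Figure D3:**
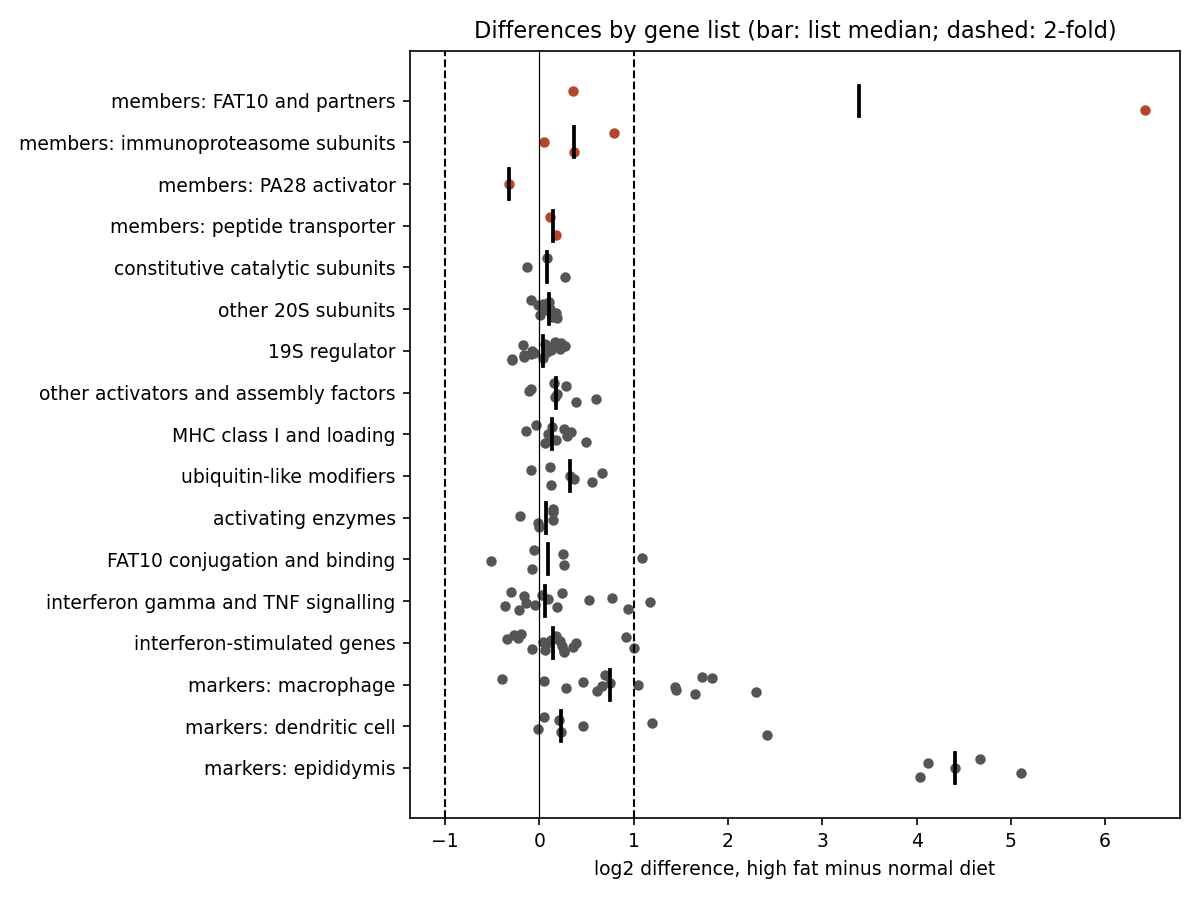
Log2 difference (horizontal axis, high fat minus normal diet) of each gene above the floor, by gene list, with red points for members, grey points for the other lists, of which 3 hold cell markers, and a black bar at the median of each list. Proteasome, class I and activating enzyme genes crowd around 0, Ubd lies at 6.42 in its list, and the epididymis markers lie between 4.03 and 5.11.

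The cytokines known to induce Ubd and their signalling genes were read on the same arrays. Ifng, which encodes interferon gamma, was below background on both, with 2.86 on the high fat diet array and 2.90 on the normal diet array. Tnf had 5.73 on the high fat diet array and 5.20 on the normal diet array, a difference of 0.53. Over 14 genes of interferon gamma and TNF signalling above the floor the median was 0.06. Of them 3 were at least 1.5-fold higher, against 8.20% of all genes, and 0 at least 1.5-fold lower, against 8.52%. These 3 were Irf8 (1.17), a transcription factor of myeloid cells, the receptor chain Ifngr2 (0.94) and the TNF receptor Tnfrsf1b (0.77), the last named after its value was seen. Irf1, a transcription factor that interferon gamma induces, differed by -0.04, and the kinase Jak2 by -0.37. The 18 interferon-stimulated genes above the floor had a median of 0.14, with 2 at least 1.5-fold higher, Oas1a (0.999) and Cxcl10 (0.92), and Gbp3 lowest (-0.34). The direction of Irf1 and Nlrc5 is not settled, since centring each array on its median adds 0.07 to every difference and turns both positive.

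Neighbours in chromosome order were taken among protein-coding genes above the floor. They are the next such genes in order, whatever their distance in bases. Of the 10 around Ubd on chromosome 17, 5 on each side, 5 were higher, and the median difference of the 10 was 0.04. Gabbr1, a GABA receptor gene on one side, had 5.59 on the high fat diet array and 6.42 on the normal diet array, a difference of -0.83. H2-M3, a class Ib gene on the other side, differed by 0.11, and the highest of the 10 was Ptchd4 with 1.76. The 10 such genes around the block from Psmb9 to Tap2, 5 on each side, had a median of 0.33, from -0.09 (Brd2) to 0.81 (H2-DMa). The 4 members they flank had 0.05 to 0.37. Of the MHC class II genes among these neighbours, H2-DMa (0.81), H2-Ab1 (0.77), H2-Eb1 (0.71), H2-Aa (0.46) and H2-Eb2 (0.29) were higher. H2-Oa (-0.02) and H2-DMb2 (-0.02) were about equal on both arrays. The neighbours were taken by their order on the chromosome, and those named here were chosen after their values were seen.

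**Figure D4:**
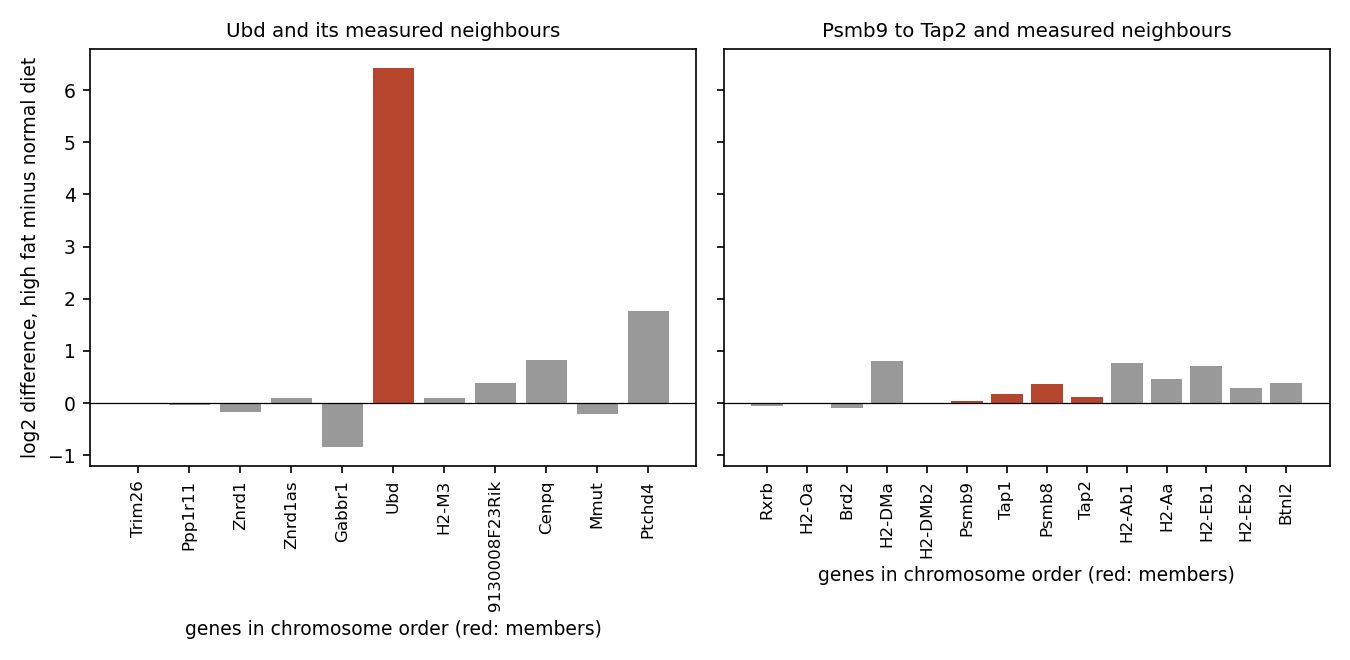
Log2 difference (vertical axis, high fat minus normal diet) of protein-coding genes above the floor, in chromosome order. They lie around Ubd (left) and around Psmb9, Tap1, Psmb8 and Tap2 (right), with members in red and neighbours in grey. Ubd reaches 6.42 beside neighbours between -0.83 and 1.76, and on the right the neighbours lie between -0.09 and 0.81 beside members between 0.05 and 0.37.

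Markers of other cell types differed between the arrays as well, and their part in the values of Ubd and the other members was not tested. In whole tissue, more cells of a type and more RNA per cell cannot be told apart. Of 15 macrophage markers, 14 were higher and 7 at least 2-fold higher in the high fat diet pool. Of all genes above the floor, 49.9% were higher and 3.28% at least 2-fold higher. The summed linear signal of the macrophage markers was 36007 on the high fat diet array and 19913 on the normal diet array. Cd68 (2.30) and Ms4a7 (1.83) were highest and Mertk (-0.40) lowest, and Adgre1, a classical surface marker, differed by 1.65. Of 10 measured dendritic cell markers 7 were above the floor, with a median difference of 0.23. Of these, 2 were at least 2-fold higher, Itgax (2.42) and Cd83 (1.19), and Zbtb46 was lowest (-0.02). The summed signals of all 10 were 2662 on the high fat diet array and 1749 on the normal diet array. Itgax and Cd83 were also the only 2 of the 7 to reach 1.5-fold, and the sum was not taken without them. Several lymphocyte markers were below background on both arrays. The 12 measured T and NK cell markers summed to 563.2 on the high fat diet array and 563.7 on the normal diet array. Of those above the floor, Cd2 (0.49) and Cd8a (0.38) were highest and Cd3d (-0.29) lowest, and 3 genes were below background. The 8 measured B cell markers summed to 10392 on the high fat diet array and 7780 on the normal diet array, but that sum is almost all Ighm (0.45). Without Ighm, the other 7 summed to 296.0 on the high fat diet array and 373.7 on the normal diet array. Cd22 (0.20) was the next highest and Ms4a1 (-1.13) the lowest of those above the floor, and 2 genes were below background.

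All 5 measured epididymis markers were at least 2-fold higher in the high fat diet pool, against 3.28% of all genes above the floor. The summed linear signal of these markers was 2489 on the high fat diet array and 117.2 on the normal diet array. Hepatocyte markers were lower in 13 of 13 cases, with sums of 592.7 on the high fat diet array and 27880 on the normal diet array. Pancreas markers were lower in 4 of 4 cases, with 110.5 on the high fat diet array and 1574 on the normal diet array. Skeletal muscle and endothelial markers were also lower, with ratios of summed signals of 0.43 and 0.71. The adipocyte markers were bright on both arrays, with Adipoq at 14.12 on the high fat diet array and 14.21 on the normal diet array. Of 9 adipocyte markers above the floor 7 were lower, with Lep (1.08) and Cidec (0.25) highest and Slc2a4 (-0.74) lowest. With each array centred on its median, 5 of the 9 were higher and 4 lower. The ratio of summed signals, high fat over normal diet, was 1.03 for adipocyte markers and 0.97 without Lep, 1.81 for macrophage markers and 1.52 for dendritic cell markers, Itgax and Cd83 included. For epididymis markers it is only bounded, at least 14.6, since 4 of the 5 were below background on the normal diet array. The ratio for Ubd, which is that of 1 gene and not of a sum, was 85.7, and the part of these markers in it was not tested.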

How the data were processed

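Adipose RNA of 2 pools, each of 3 mice, was hybridised to 1 Affymetrix array per diet. The deposited values are log2 signals of 45101 probe sets, made by the authors with RMA, per the submitters' processing notes. The RMA version is not stated in the sources used here. That the scale is log2 follows from the range of the values, 2.04 to 14.28. After sorting, the columns differ by at most 0.14, so any change in total RNA was removed.

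Gene names came from the platform annotation held by GEO, which may be outdated, and the 34945 probe sets with 1 symbol were used. The Entrez ID of 34741 is in the RefSeq table (GRCm38.p6), which changed no symbol. The 64 control probe sets were left out. The members, lists, floor and rule for named genes were chosen with earlier results of these data known. The rule names every member, 17 set genes where measured, the 2 highest and the lowest of each list (not printed for markers of endothelium and of other tissues), and the 3 genes nearest to Ubd. Others are named for a count or a position. The calculation, in pandas 2.3.3, was tested on simulated data whose shifted genes were set past 2-fold. That test checks the code and not the spread between arrays or mice. With 1 array per diet no test was possible.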

Additional observations from a re-analysis of the deposited data

How the results depend on the processing

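With 1 array per diet, no difference has a replicate check, and pooling leaves the spread between mice unknown. No paired analysis was possible because each diet has a single array. The difference of Ubd ran from 6.42 to 6.49 over 4 alternatives (the median of a gene's probe sets, leaving out probe sets that may bind several transcripts, each array centred on its median, and values under background raised to it). Ubd has 1 probe set, not of the kind left out and above background on both arrays. Only the centring could therefore change its difference, and the narrow range is no check of it. Those 4 alternatives, no floor and a floor at the 75th percentile left 1 member at least 2-fold higher, and the median of the members ran from 0.19 to 0.35. Over the same alternatives Psme1 stayed below 0 (-0.32 to -0.25) and Psmb8 ran from 0.19 to 0.44. Psme1 also has 1 such probe set, so only the centring could change it. With the floor at the 75th percentile, where fewer genes are compared, 190 genes were at least 2-fold higher and 132 lower, against 386 and 388. With a fold of 1.5 in place of 2 the counts were 2 members, 966 genes higher and 1004 lower. The marker sums without Ighm, without Lep and with epididymis values raised to background were chosen after seeing the data. Signal over background limits Tnf and the dim probe sets of Uba6, Psmb8 and Tap1.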
